A study of Danio rerio with 16 samples.

Results

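The slc25 genes encode the mitochondrial solute carriers, and the members described here were all rows of the 3 deposited count tables whose gene name is slc25a followed by a number. The rule found 65 rows of the 29629 genes listed in any table. Of these, 54 rows were primary rows on an assembled chromosome, with 53 different gene names, and 11 were further copies of a member on an alternate scaffold of the genome build. No measured value entered this rule, although the family was chosen with earlier results of these data known. The primary rows lay on 21 chromosomes.

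Carriers of this family are small proteins of the mitochondrial inner membrane, which most metabolites cannot cross unaided. Most of them exchange a substrate of the matrix for one of the cytosol, and together they move ADP and ATP, phosphate, carboxylic acids of the citric acid cycle, amino acids, nucleotides, cofactors, iron, and glutathione. Growing oocytes accumulate large numbers of mitochondria, and the surrounding follicle cells make steroids with mitochondrial enzymes, so both cell types of an ovary depend on these carriers. The roles given below come mostly from mammalian or yeast carriers of the same name.

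RNA was sequenced from ovary pieces of wild-type adult zebrafish after 6 h of culture at 28 °C with 100 nM PNX-20, 5 μM A8535, 5 μM PT-91, or the DMSO vehicle as control, with 4 libraries per group. PNX-20 is a phoenixin peptide, a putative ligand of the orphan receptor SREB3, and A8535 and PT-91 are synthetic agonists of SREB1. Each ovary was divided into 5 sections, of which 4 were cultured with 1 treatment each, ovaries at early stages were preferred, and which libraries came from the same fish is not given in the labels. The comparisons ask whether a treatment changed transcript abundance relative to the vehicle, and whether the agonists differed from each other. Each piece holds oocytes, follicle cells, and other cells, so a lower count from fewer cells of a type cannot be told apart from one due to less RNA per cell. A p-value here sets a difference between groups against the spread between libraries within a group. It treats the libraries as independent, although some of different groups may come from the same fish.

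Libraries held 10233870 to 15104959 counted reads. All 9 oocyte markers and all 10 follicle cell markers examined had reads in at least 1 library of every group. Of the follicle cell markers, fshr and foxl2a averaged only 0.303 and 0.635 CPM. Sums over the oocyte markers were 6278 to 8359 CPM in PNX-20 and 3316 to 6753 CPM in A8535 ovaries. They were 3974 to 8908 CPM in PT-91 and 5354 to 7297 CPM in control ovaries. The gene h1m, highest on average, had 1500 to 5719 CPM in PT-91 and 1826 to 2960 CPM in control ovaries. All PT-91 libraries lay below all control libraries for zp2.1, at 216 to 440.5 against 498.7 to 828.6 CPM. The same held for zp3.2, at 792.5 to 1113 against 1140 to 2262 CPM. For the other oocyte markers these groups overlapped. Hepatocyte markers summed to 437 CPM in A8535 library 4 and to 2.19 to 35.4 CPM in the others. Marker sums of other cell types varied as well. Erythrocyte markers summed to 3.02 CPM (control library 3) to 92.8 CPM (A8535 library 2). Pancreas markers summed to 8.67 CPM (control library 3) to 197 CPM (A8535 library 3), where the single gene gcga gave 155.2 CPM. The markers prss1, ctrb1, and cel.1 were highest in PNX-20 library 4, cpa5 in A8535 library 3, and ela2 in control library 4. The pancreas sum therefore does not show how much pancreas tissue a library held. Mitochondrially encoded genes took 3.95% of the reads in A8535 library 2, 4.08% in PT-91 library 1, and 3.98% in PT-91 library 2. These 3 libraries detected 43 of the primary slc25 rows each, against 48 to 53 in the others. The same 3 libraries also detected fewer of all genes listed in every table, 19047 to 19706 against 20878 to 23967 in the others. Their part in the differences described here was not tested, but counts after PT-91 are also given without its libraries 1 and 2.

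A single ADP/ATP carrier led the family in the ovary. The slc25a5 gene, which encodes the carrier that exchanges cytosolic ADP for matrix ATP, lies on chromosome 14 (GRCz11, 32881627 to 32884069, minus strand) and averaged 1157 RPKM over the 16 libraries, with a range of 829 to 1903 RPKM. RPKM are read counts divided by gene length and scaled to library size, and were used whenever levels of different genes were compared. Next by RPKM level came slc25a3b, which encodes a phosphate carrier (264 RPKM; chromosome 25), and slc25a25a, which encodes an ATP-Mg/phosphate carrier (222 RPKM; chromosome 8). The lowest RPKM of slc25a5 in any library, 829, was above the highest RPKM of slc25a3b, 404, whereas the ranges of slc25a3b (190.2 to 404) and slc25a25a (116 to 288) overlapped. On their primary rows the other ADP/ATP carriers were near 0, since slc25a6 averaged 0.235 RPKM and slc25a4 0.0366 RPKM. Both genes also have an alternate-scaffold row of the same length, which averaged 0.163 RPKM for slc25a4 and was listed in 1 table for slc25a6. How reads that fit both rows were counted is not given in the sources used, so these levels are uncertain.

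Behind these 3 came slc25a20, for the carnitine/acylcarnitine carrier that admits fatty acids (90.1 RPKM), slc25a33, for a pyrimidine nucleotide carrier (83.2 RPKM), and slc25a39, for a glutathione carrier (78.1 RPKM). The NAD carrier gene slc25a51b averaged 71.7 RPKM, and slc25a12, for the aspartate/glutamate carrier of the malate-aspartate shuttle, averaged 68.2 RPKM. The RPKM ranges of these 5 over the libraries overlapped, so their order is not firm. Of the 53 primary rows listed in all tables, 17 averaged at least 10 RPKM, 21 were between 1 and 10 RPKM, and 15 were below 1 RPKM. As a share of all slc25 counts, which are not corrected for length, slc25a5 alone took 30.96% to 43.81% per library, the leading 3 genes 58.13% to 68.98%, and the leading 12 genes 84.73% to 91.18%.

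**Figure D1:**
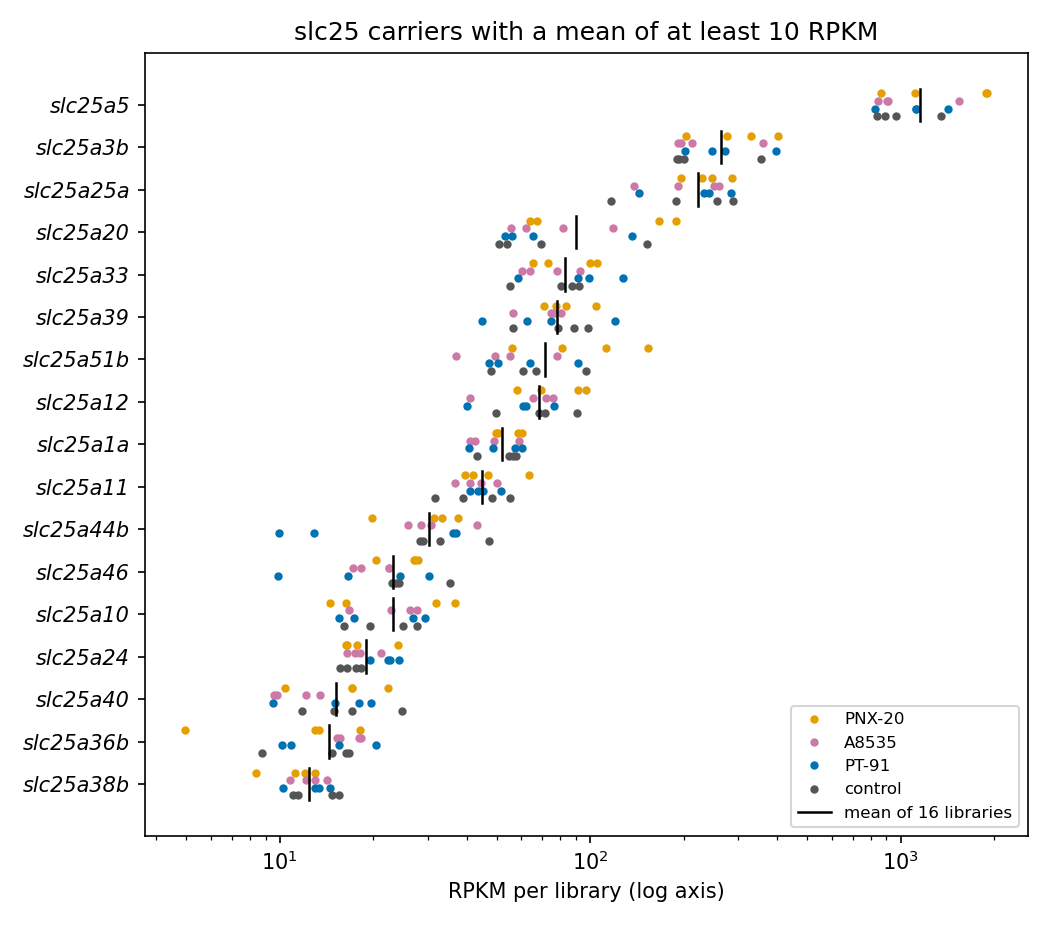
RPKM (log axis) of the 17 slc25 carriers with a mean of at least 10 RPKM, 1 row per gene; each point is a library, colored by treatment, and the black tick is the mean of 16 libraries. The points of slc25a5 span 829 to 1903 RPKM, to the right of every other carrier.

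Zebrafish carry many of these carriers as pairs, and in several pairs the same member was the higher one in all 16 libraries. On the RPKM scale of primary rows, slc25a1a, a citrate carrier gene, took at least 99.03% of the pair with slc25a1b in every library, and slc25a12 took at least 99.38% of the sum with slc25a13, the other aspartate/glutamate carrier gene. The ATP-Mg/phosphate carrier gene slc25a25a took 96.73% to 99.75% of the RPKM of its pair. The "a" copy was the lower one by RPKM for slc25a36 (at most 4.263%, a pyrimidine nucleotide carrier), slc25a51 (at most 15.94%), and slc25a44 (at most 39.06%, a branched-chain amino acid carrier) in all 16 libraries. By RPKM, slc25a32a, for a folate and FAD carrier, took 31.86% to 54.34% of its pair. The higher member also changed between libraries for slc25a15a (6.289% to 100% of its pair), slc25a38a (7.85% to 60.07%), and slc25a47a (0% to 100%). However, slc25a38a was the higher one in only 1 library. With averages of only 0.212 RPKM for slc25a47a and 0.400 RPKM for slc25a47b, the shares of that pair rest on few reads. For slc25a15a this share leaves out the alternate row of slc25a15b, so it is uncertain. In control library 4, where slc25a15a took 100%, that alternate row had 4.06 RPKM against 2.62 for slc25a15a. In PT-91 library 1, also at 100%, it had 0.886 RPKM against 8.02. For slc25a23a the share was 83.97% to 100% where the pair was detected, but this gene averaged only 0.665 RPKM. Between the glutathione carriers, slc25a39 exceeded slc25a40 in RPKM in all 16 libraries.

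Relative to all counted reads, the whole family held 0.443% ± 0.0984 in PNX-20, 0.378% ± 0.0957 in A8535, 0.382% ± 0.0774 in PT-91, and 0.359% ± 0.0526 in control libraries (SD, n = 4 each). The libraries ranged over 0.319% to 0.525% with PNX-20, 0.285% to 0.512% with A8535, 0.309% to 0.482% with PT-91, and 0.293% to 0.421% in the control, so the groups overlapped. No slc25 gene passed the test in any comparison. With edgeR's quasi-likelihood test and Benjamini-Hochberg adjustment over all genes tested, 0 of 42 primary rows tested after PNX-20, 0 of 42 after A8535, and 0 of 43 after PT-91 had an adjusted p under 0.05, and DESeq2 and limma-voom also gave 0 in each. The smallest adjusted p of a primary row was 0.998, 0.999, and 0.718 in these comparisons with the control. The smallest over all genes by edgeR was 0.956, 0.999, and 0.231, so no gene passed in edgeR. DESeq2 gave 19, 3, and 34 genes at an adjusted p under 0.05 in these comparisons, none of them a primary slc25 row. Whether alternate slc25 rows were among these genes was not examined.

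At an unadjusted p under 0.05, which is used below only as a way to sort the members, edgeR gave 1 higher and 1 lower primary row of 42 after PNX-20. On the same rule 2.51% of all genes tested were counted, 1.3% higher and 1.21% lower. DESeq2 counted 4 rows, beside 3.84% of all genes, and limma-voom 1, beside 3.81%. After A8535 the count was 0 by edgeR, DESeq2, and limma-voom, beside 2.48%, 4.11%, and 2.69% of all genes. After PT-91 it was 0 by edgeR, beside 6.81% of all genes, 1 by DESeq2, beside 9.31%, and 0 by limma-voom, beside 3.91%. For 42 rows, the background share after PNX-20 is about 1 row. Rows not tested for low counts in any of the 3 comparisons with the control were slc25a1b, slc25a4, slc25a6, slc25a13, slc25a23b, slc25a24l, both rows named slc25a29, slc25a35, slc25a45, and slc25a48, and slc25a47b was tested only after PT-91.

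After PNX-20, 33 of the 42 rows tested lay above 0 on the log2 fold change scale (78.6%, against 48.6% of all genes tested), and their median was 0.16 against -0.02 over all genes. After PT-91, 29 of 43 rows lay above 0 (67.4%, against 50.2% of all genes), with a median of 0.15 against 0.0033. After A8535, 17 of 42 rows lay above 0 (40.5%, against 46.4%), with a median of -0.05 against -0.04. The A8535 side depended on the scaling, since the share above 0 was 52.4% with upper-quartile scaling and 54.8% with library size only, where 52.8% and 54.9% of all genes lay above 0. Without single libraries, the PT-91 share ran from 53.5% (without control library 3, against 48.4% of all genes) to 67.4%. It was 58.1% with copies summed, against 47.3%. The PNX-20 share ran from 64.3% to 79.1% without single libraries. These 3 comparisons share the control libraries, and the carriers are not independent of one another, so the medians are a description of these libraries.

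**Figure D2:**
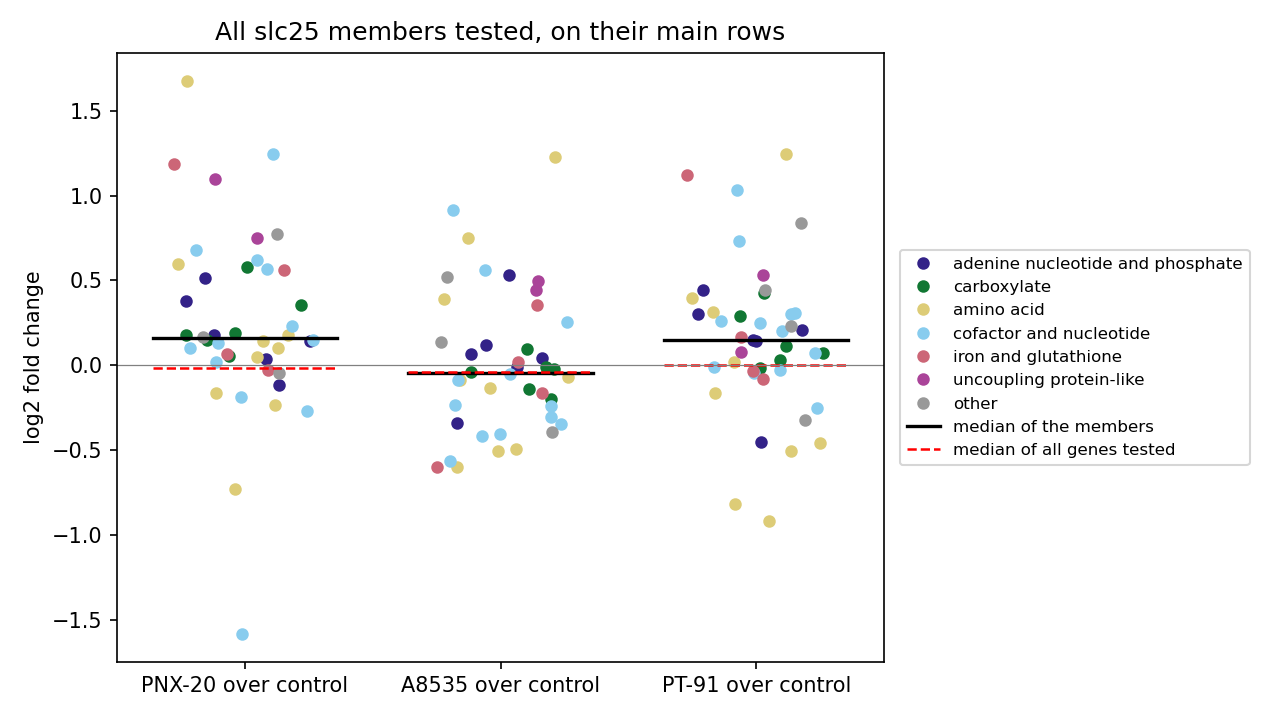
Log2 fold change of every primary slc25 row tested, treatment over control, for PNX-20, A8535, and PT-91 (points spread sideways for legibility and colored by role); black lines are medians of the members and dashed red lines medians of all genes tested. The PNX-20 points lie mostly above 0 (33 of 42), and the A8535 points lie on both sides (17 of 42 above 0).

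The adenine nucleotide and phosphate carriers supply the ATP synthase with ADP and phosphate and export the ATP made. In CPM, read counts scaled to a common library size, slc25a5 had 2405, 1409.7, 2375, and 1090.3 in PNX-20 ovaries, 1145, 1155, 1956, and 1067 in A8535 ovaries, 1420.0, 1419, 1796, and 1048 in PT-91 ovaries, and 1065, 1709, 1123, and 1219 in control ovaries. Its 5 highest libraries were PNX-20 libraries 1 and 3, A8535 library 3, PT-91 library 3, and control library 2, and the groups overlapped. The log2 fold change over control was 0.51 (SE 0.33) after PNX-20, 0.06 (SE 0.29) after A8535, and 0.21 (SE 0.29) after PT-91. Without PNX-20 library 4 the PNX-20 value was 0.69 (SE 0.30), and edgeR's unadjusted p then lay under 0.05. Without PNX-20 library 1 it was 0.35, so leaving out single libraries moved it both ways.

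The mitochondrial phosphate carrier gene slc25a3b (chromosome 25, 3306690 to 3321365, plus strand) had 516, 433, 633, and 319 CPM in PNX-20 ovaries, 334, 299.7, 565, and 307 CPM in A8535 ovaries, 620.5, 387, 425, and 316 CPM in PT-91 ovaries, and 303, 555, 298, and 315 CPM in control ovaries. Single libraries stood far above the rest of their group in A8535 (library 3) and in the control (library 2), and the groups overlapped. The fold change was 0.38 (SE 0.30) after PNX-20, 0.04 (SE 0.32) after A8535, and 0.30 (SE 0.32) after PT-91. When control library 2 was left out, the PNX-20 value was 0.64 (SE 0.28), with an unadjusted p under 0.05. When PNX-20 library 3 was left out, the PNX-20 value was 0.20.

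The ATP-Mg/phosphate carriers are regulated by calcium and set the adenine nucleotide pool of the matrix. Their main gene here, slc25a25a, had 759, 518, 650.0, and 607 CPM in PNX-20 ovaries, 508, 364, 663, and 687 CPM in A8535 ovaries, 378, 637, 753, and 615 CPM in PT-91 ovaries, and 677, 307, 498, and 761 CPM in control ovaries. Both the highest and the lowest library of slc25a25a were controls, and the fold changes over control were 0.18 (SE 0.30) after PNX-20, -0.01 (SE 0.33) after A8535, and 0.15 (SE 0.36) after PT-91. A second gene of this kind, slc25a24 (chromosome 20, 34653916 to 34670059, minus strand), had 56.5, 38.6, 38.9, and 41.9 CPM in PNX-20 ovaries, 41.2, 49.9, 38.9, and 42.7 CPM in A8535 ovaries, 57.2, 53.3, 52.5, and 45.96 CPM in PT-91 ovaries, and 43.2, 36.8, 38.7, and 41.4 CPM in control ovaries. All PT-91 libraries lay above all control libraries for slc25a24. This was 1 of 2 primary rows without overlap in this comparison, beside 2.73% of all genes. Its fold change was 0.44 (SE 0.25), adjusted p = 0.726, after PT-91, against 0.14 (SE 0.24) after PNX-20 and 0.12 (SE 0.22) after A8535, where the groups overlapped. Within this group of carriers, 5 of 6 rows tested lay above 0 after PNX-20, 4 of 6 after A8535, and 5 of 6 after PT-91, and none had an unadjusted p under 0.05.

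Among the carriers of carboxylates and acylcarnitines, the most abundant by RPKM was slc25a20, which stood highest in the same libraries as slc25a5. The gene (chromosome 22, 105376 to 109686, plus strand) had 263, 93.9, 232, and 89.3 CPM in PNX-20 ovaries, 114, 86.8, 165, and 77.3 CPM in A8535 ovaries, 74.2, 77.9, 189.8, and 91.2 CPM in PT-91 ovaries, and 75.4, 213, 96.8, and 70.99 CPM in control ovaries. Its 5 highest libraries were the same 5 as those of slc25a5, at 165 CPM or more, and the other 11 libraries were at 114 CPM or less. Of the 12 most abundant carriers, slc25a3b, slc25a39, and slc25a51b shared 4 of their 5 highest libraries with slc25a5, and the others shared 2 or 3. These 5 libraries spanned all treatments. Library 3 of PNX-20, of A8535, and of PT-91 carry the same number, and the deviations of these 3 from their group means over genes correlated with each other at 0.394 to 0.459. Whether they came from the same fish was not tested. The fold change of slc25a20 was 0.58 (SE 0.47) after PNX-20, -0.04 (SE 0.40) after A8535, and -0.02 (SE 0.44) after PT-91. When control library 2 was left out, the PNX-20 value was 1.06 (SE 0.42), with an unadjusted p under 0.05, the A8535 value was 0.45 (SE 0.31), and the PT-91 value was 0.47 (SE 0.38). In the other direction, the PNX-20 value was 0.28 without PNX-20 library 1. The A8535 value was -0.30 without A8535 library 3, and the PT-91 value was -0.42 without PT-91 library 3.

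**Figure D3:**
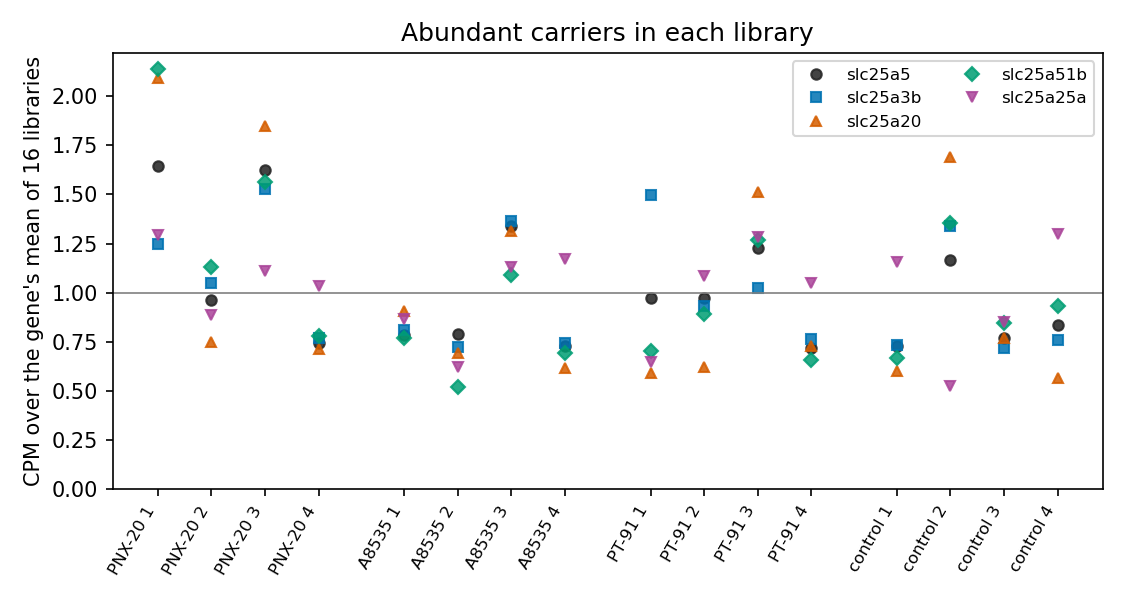
CPM of slc25a5, slc25a3b, slc25a20, slc25a51b, and slc25a25a in each of the 16 libraries, divided by the mean of the gene over all libraries (grey line at 1). PNX-20 libraries 1 and 3, A8535 library 3, PT-91 library 3, and control library 2 are the 5 highest libraries of both slc25a5 and slc25a20.

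Among the remaining carboxylate carriers, slc25a21 ran over 3.79 to 11.6 RPKM and slc25a34 over 5.04 to 17.6 RPKM. The more abundant slc25a1a and slc25a11 varied less. The citrate carrier gene slc25a1a ranged over 40.7 to 60.5 RPKM and slc25a11, for the oxoglutarate/malate carrier, over 31.7 to 63.5 RPKM. Their log2 fold changes over control were 0.05 and 0.15 after PNX-20, -0.14 and -0.01 after A8535, and 0.03 and 0.11 after PT-91. All 6 carboxylate carriers tested lay above 0 after PNX-20 (median 0.18), 1 of 6 after A8535 (median -0.03), and 5 of 6 after PT-91 (median 0.09). None of the 6 had an unadjusted p under 0.05 in any of these comparisons.

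Amino acid carriers feed the malate-aspartate shuttle, the urea cycle, and heme synthesis. For slc25a12 (chromosome 6, 3961319 to 3982783, minus strand), the libraries had 194, 162, 272, and 255 CPM in PNX-20 ovaries, 201, 115, 213, and 182 CPM in A8535 ovaries, 112, 174, 214, and 169.9 CPM in PT-91 ovaries, and 191, 199.8, 254, and 139 CPM in control ovaries. The groups overlapped, and the fold changes were 0.18 (SE 0.25) after PNX-20, -0.14 (SE 0.27) after A8535, and -0.16 (SE 0.30) after PT-91. The ornithine carrier gene slc25a15a (chromosome 15, 3255053 to 3282220, minus strand) was far more variable, with 6.82, 13.6, 14.8, and 0.909 CPM in PNX-20 ovaries, 8.40, 6.12, 11.2, and 0.762 CPM in A8535 ovaries, 12.9, 2.66, 9.27, and 1.40 CPM in PT-91 ovaries, and 0.660, 5.29, 1.17, and 4.20 CPM in control ovaries. At least 1 library of each group was at or below 1.40 CPM, so the groups overlapped despite fold changes of 1.68 (SE 0.90) after PNX-20, 1.23 (SE 0.87) after A8535, and 1.25 (SE 0.85) after PT-91. With PNX-20 library 4 left out, the PNX-20 value was 2.05 (SE 0.75), with an unadjusted p under 0.05. With PNX-20 library 3 left out, it was 1.33. In all, 6 of 9 amino acid carriers lay above 0 after PNX-20, 3 of 9 after A8535, and 4 of 9 after PT-91. The row named slc25a22, which RefSeq calls slc25a55a, and the glutamate carrier gene slc25a18 gave 0.75 and -0.51 after A8535 and 0.31 and -0.92 after PT-91.

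Carriers of cofactors and nucleotides bring in NAD, coenzyme A, folate, thiamine pyrophosphate, S-adenosylmethionine, and pyrimidine nucleotides. The NAD carrier gene slc25a51b (chromosome 14, 4178241 to 4183041, plus strand) had 189, 99.8, 138, and 68.7 CPM in PNX-20 ovaries, 67.95, 45.7, 96.3, and 61.0 CPM in A8535 ovaries, 62.1, 78.8, 112, and 58.2 CPM in PT-91 ovaries, and 58.9, 119.6, 74.7, and 82.3 CPM in control ovaries. PNX-20 library 1 was the highest and A8535 library 2 the lowest, and every group overlapped the control. Its fold change was 0.57 (SE 0.34) after PNX-20, -0.30 (SE 0.31) after A8535, and -0.05 (SE 0.32) after PT-91. Without control library 2 the PNX-20 value was 0.79 (SE 0.34), and without PNX-20 library 4 it was 0.77 (SE 0.31), both with an unadjusted p under 0.05. Without PNX-20 library 1 it was 0.29. The pyrimidine nucleotide carrier gene slc25a33 (chromosome 23, 29861243 to 29878643, minus strand) had 179, 124, 171, and 111 CPM in PNX-20 ovaries, 103, 133, 109, and 158 CPM in A8535 ovaries, 216, 99.6, 155, and 169 CPM in PT-91 ovaries, and 157, 149, 93.8, and 137 CPM in control ovaries. The groups overlapped, and its fold changes were 0.13 (SE 0.25), -0.09 (SE 0.25), and 0.30 (SE 0.30) after PNX-20, A8535, and PT-91. Of 12 carriers in this role group, 9 lay above 0 after PNX-20, 3 after A8535, and 8 after PT-91.

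Among the less abundant cofactor carriers, slc25a17, which encodes a carrier of the peroxisome, had the smallest unadjusted p of a primary row after PT-91. Its levels were 0.314, 15.5, 7.78, and 6.46 CPM in PNX-20 ovaries, 5.06, 13.6, 3.22, and 5.59 CPM in A8535 ovaries, 9.09, 11.6, 8.36, and 8.09 CPM in PT-91 ovaries, and 7.27, 1.92, 4.19, and 5.45 CPM in control ovaries. All PT-91 libraries lay above all control libraries, whereas PNX-20 and A8535 libraries overlapped the control. The fold change was 1.03 (SE 0.51), adjusted p = 0.718, after PT-91, against 0.68 (SE 0.87) after PNX-20 and 0.56 (SE 0.60) after A8535. Summed with its row on an alternate scaffold, slc25a17 averaged 11.2 ± 5.33 CPM in PNX-20, 8.32 ± 3.61 CPM in A8535, 10.2 ± 1.08 CPM in PT-91, and 6.36 ± 2.44 CPM in control ovaries, and all groups overlapped the control (SD, n = 4 each).

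The lowest unadjusted p of a primary row in any comparison with the control belonged to slc25a16, which encodes a carrier related to coenzyme A transport in yeast. On its chromosome 13 row (18179093 to 18195942, minus strand), slc25a16 had 3.61, 10.2, 6.79, and 8.27 CPM in PNX-20 ovaries, 32.5, 24.7, 4.30, and 12.03 CPM in A8535 ovaries, 60.5, 13.9, 8.59, and 14.4 CPM in PT-91 ovaries, and 12.1, 30.6, 25.7, and 18.9 CPM in control ovaries. All PNX-20 libraries lay below all control libraries, and PT-91 library 1 was the highest of all. This row and slc25a27 were the 2 primary rows without overlap after PNX-20, beside 1.66% of all genes. The fold change was -1.59 (SE 0.45), adjusted p = 0.998, after PNX-20, against -0.24 (SE 0.58) after A8535 and 0.20 (SE 0.60) after PT-91. Without PT-91 library 1, the PT-91 value was -0.82 (SE 0.44).

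However, the second slc25a16 row, on an alternate scaffold, differed in the opposite direction. That copy, 1771 bases long against 1795 for the chromosome 13 row, had 13.6, 17.04, 9.66, and 7.37 CPM in PNX-20 ovaries, 0.633, 5.45, 6.21, and 3.90 CPM in A8535 ovaries, 0.491, 11.1, 8.96, and 5.94 CPM in PT-91 ovaries, and 5.28, 2.96, 0.681, and 1.79 CPM in control ovaries. All PNX-20 libraries lay above all control libraries on the copy, and its fold change was 2.15 (SE 0.63) after PNX-20. It was the 1 alternate row of 7 tested without overlap in this comparison, beside 1.66% of all genes. How alike these rows are in sequence was not measured, and reads that fit both may be assigned to either, so the split between them is uncertain. The copy held 47.09% to 79% of the summed CPM in PNX-20 libraries, 1.907% to 59.09% in A8535, 0.8054% to 51.07% in PT-91, and 2.583% to 30.48% in control libraries. Added together, both rows averaged 19.1 ± 5.47 CPM in PNX-20, 22.4 ± 10.9 CPM in A8535, 30.97 ± 20.3 CPM in PT-91, and 24.5 ± 7.10 CPM in control ovaries (SD, n = 4 each). With the rows summed before the fit, the PNX-20 value was -0.34 (SE 0.33). In the sum, the difference was about the size of its SE.

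**Figure D4:**
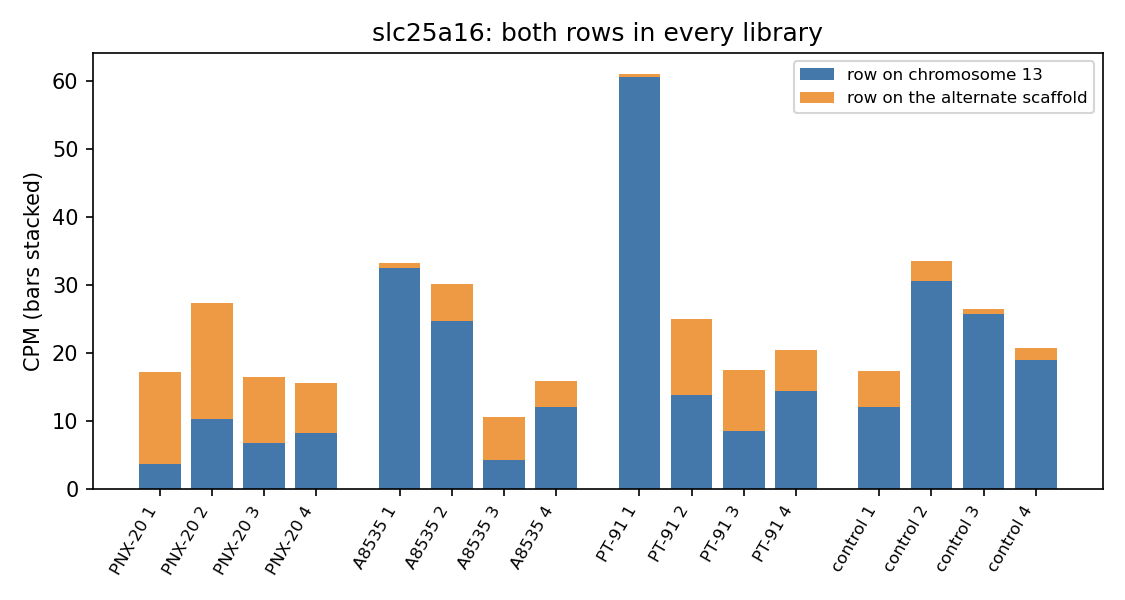
CPM of the chromosome 13 row of slc25a16 and of its alternate-scaffold row, stacked, in each of the 16 libraries. In PNX-20 libraries the alternate row makes up 47.09% to 79% of the bar, and in control libraries 2.583% to 30.48%.

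The smallest unadjusted p of any slc25 row belonged to an alternate row as well. The first alternate row of slc25a26, an S-adenosylmethionine carrier gene, had 2, 1, 32, and 10 reads in PNX-20, 13, 0, 6, and 14 reads in A8535, 0, 0, 1, and 1 reads in PT-91, and 31, 26, 14, and 55 reads in control libraries. All PT-91 libraries lay below all control libraries on this row, which is 685 bases long against 1285 for the primary row. It was the 1 alternate row of 7 tested without overlap after PT-91, beside 2.73% of all genes. In CPM, all A8535 libraries also lay below all control libraries on this row, at 0 to 1.19 against 1.36 to 4.91. It was likewise the 1 alternate row of 8 tested without overlap after A8535, beside 2% of all genes. After scaling for library size, the ratio of PT-91 to control reads was 0.0157, with a 95% counting interval of 0.00188 to 0.0578 that covers counting error only. edgeR's quasi-likelihood test gave an adjusted p = 0.712 (Benjamini-Hochberg). Over its 3 rows, however, slc25a26 averaged 5.80 ± 1.78 CPM in PNX-20, 4.47 ± 1.06 CPM in A8535, 5.59 ± 2.11 CPM in PT-91, and 7.03 ± 1.99 CPM in control ovaries, and the groups overlapped. This was the 1 copy of 7 tested after PT-91 that was lower at an unadjusted p under 0.05, beside 1.49% of all genes, and the slc25a16 copy was the 1 of 7 that was higher after PNX-20.

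Iron and glutathione carriers serve heme and iron-sulfur cluster synthesis and matrix redox balance. The glutathione carrier gene slc25a39 (chromosome 3, 29872818 to 29891495, minus strand) had 182, 169, 227, and 155 CPM in PNX-20 ovaries, 166, 123, 163, and 175 CPM in A8535 ovaries, 97.7, 137, 262, and 163 CPM in PT-91 ovaries, and 172, 215, 194, and 123 CPM in control ovaries. PT-91 libraries held both the highest and the lowest value, and the fold changes were 0.07 (SE 0.23) after PNX-20, -0.16 (SE 0.24) after A8535, and -0.03 (SE 0.34) after PT-91. Its partner slc25a40 gave -0.60 (SE 0.31) after A8535, the smallest p of a primary row in that comparison. The mitoferrin-2 gene slc25a28 (chromosome 13, 40334727 to 40354313, plus strand) had 7.69, 5.39, 15.3, and 4.27 CPM in PNX-20 ovaries, 2.80, 1.12, 11.1, and 3.22 CPM in A8535 ovaries, 11.7, 2.33, 12.7, and 3.71 CPM in PT-91 ovaries, and 2.64, 3.84, 2.04, and 5.80 CPM in control ovaries. The groups overlapped, with fold changes of 1.19 (SE 0.57) after PNX-20, 0.35 (SE 0.72) after A8535, and 1.12 (SE 0.65) after PT-91. For slc25a28, the A8535 value was -0.60 (SE 0.64) without A8535 library 3 and -0.51 (SE 0.81) with its rows summed, both of the other sign. The PNX-20 value was 1.52 (SE 0.62) without control library 4 and 1.40 (SE 0.58) without PNX-20 library 4, both with an unadjusted p under 0.05. Without PNX-20 library 3 it was 0.69. Of the 4 carriers in this role group, 3 lay above 0 after PNX-20, 2 after A8535, and 2 after PT-91.

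Most of the mitoferrin-2 spread lay in an alternate row of the same length, 3417 bases. That row had 0.706, 0.235, 39.96, and 0.364 CPM in PNX-20 ovaries, 1.08, 0.373, 1.19, and 1.02 CPM in A8535 ovaries, 23.8, 0.887, 29.2, and 0.413 CPM in PT-91 ovaries, and 0.660, 0.801, 0.681, and 14.8 CPM in control ovaries. PNX-20 library 3, PT-91 libraries 1 and 3, and control library 4 were at 14.8 CPM or more, and the other 12 libraries were at 1.19 CPM or less. A8535 was the group with no library at the high level. Summed over both rows, slc25a28 averaged 18.5 ± 24.6 CPM in PNX-20, 5.48 ± 4.71 CPM in A8535, 21.2 ± 20.4 CPM in PT-91, and 7.83 ± 8.57 CPM in control ovaries (SD, n = 4 each), a spread larger than the differences.

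The uncoupling protein-like carriers resemble the proton carriers of brown fat, and in mammals slc25a27 is known mainly from brain. In these ovaries slc25a27 (chromosome 20, 36801804 to 36808813, minus strand) was low, at 1.77 RPKM on average, with 4.55, 2.66, 3.31, and 3.00 CPM in PNX-20 ovaries, 2.35, 3.73, 1.91, and 0.508 CPM in A8535 ovaries, 2.37, 1.33, 2.49, and 0.248 CPM in PT-91 ovaries, and 1.32, 2.00, 1.46, and 1.52 CPM in control ovaries. All PNX-20 libraries lay above all control libraries, while the A8535 and PT-91 libraries lay on both sides of them. The fold change was 1.1 (SE 0.47), adjusted p = 0.998, after PNX-20, 0.44 (SE 0.66) after A8535, and 0.07 (SE 0.73) after PT-91. Its unadjusted p after PNX-20 was under 0.05 with all 8 libraries and above 0.05 whenever any 1 of them was left out. The other carrier of this kind, slc25a14, gave 0.75, 0.49, and 0.53 after PNX-20, A8535, and PT-91 on the log2 scale.

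Outside these roles, slc25a46 encodes a protein of the outer membrane that acts in mitochondrial shape. The gene (chromosome 5, 55920892 to 55933256, minus strand) had 38.7, 51.4, 51.05, and 52.7 CPM in PNX-20 ovaries, 32.5, 34.6, 42.6, and 42.5 CPM in A8535 ovaries, 18.7, 31.4, 57.3, and 46.1 CPM in PT-91 ovaries, and 44.6, 66.96, 45.8, and 43.5 CPM in control ovaries. All A8535 libraries lay below all control libraries, which made it the 1 primary row without overlap after A8535, beside 2% of all genes. The fold change was -0.39 (SE 0.25), adjusted p = 0.999, after A8535, -0.05 (SE 0.25) after PNX-20, and -0.32 (SE 0.38) after PT-91. The highest A8535 library, at 42.6 CPM, was close to the lowest control library, at 43.5 CPM.

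**Figure D5:**
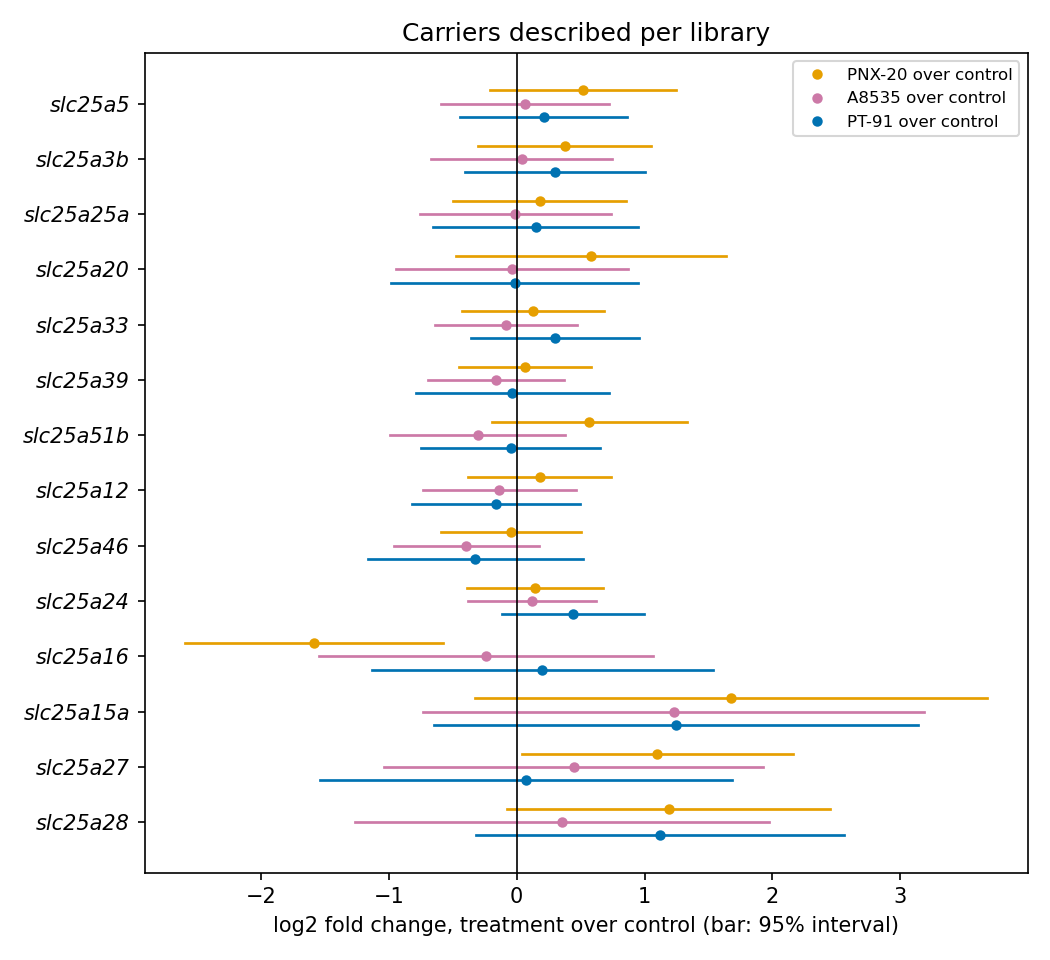
Log2 fold change over control (points) with its 95% interval (bars) after PNX-20, A8535, and PT-91 for the 14 carriers that the rule for values by library named, ordered by RPKM; slc25a17 is not drawn. The intervals of slc25a16 and slc25a27 after PNX-20 do not cross 0, and all others drawn do.

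The agonists PT-91 and A8535 were given at the same dose and time. In a single fit of all 16 libraries, 0 of 44 primary rows had an adjusted p under 0.05 between them by edgeR, DESeq2, or limma-voom, and 0 had an unadjusted p under 0.05, beside 2.26% of all genes. The most abundant carriers gave intervals that included both directions, so these data do not show that the agonists act alike. For PT-91 over A8535, the 95% interval of the log2 fold change was -0.57 to 0.76 for slc25a5, -0.45 to 0.88 for slc25a3b, -0.55 to 0.75 for slc25a25a, and -0.99 to 0.93 for slc25a20. For slc25a16 the interval was -0.95 to 1.76, the widest of those given here, and for slc25a24 it was -0.17 to 0.72. The slc25a16 value of 0.41 (SE 0.64) turned to -0.58 (SE 0.58) without PT-91 library 1 and to -0.47 (SE 0.72) without the 3 libraries with a high share of mitochondrially encoded reads. Without the same 3 libraries, slc25a3b gave -0.10 (SE 0.39), against 0.21 (SE 0.31) with all. No primary row had PT-91 and A8535 libraries that did not overlap, beside 1.22% of all genes.

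Of 8 alternate rows tested between the agonists, 1 was higher and 1 lower at an unadjusted p under 0.05, beside 1.52% and 0.739% of all genes. The lower one was slc25a26 copy 1, with 2 reads in PT-91 against 33 in A8535 libraries, and the higher one was slc25a28 copy 1, with a log2 fold change of 3.87 (SE 1.71). For slc25a28 copy 1, the unadjusted p was above 0.05 without PT-91 library 1 or 3, without any 1 of the A8535 libraries, and without the 3 libraries with a high share of mitochondrially encoded reads. Of the 44 primary rows, 27 lay above 0 for PT-91 over A8535 (61.4%, against 47.5% of all genes). With library size as the only scaling, the share was 47.7%, against 42.2% of all genes. Leaving out single libraries, the share ran from 45.7% (without PT-91 library 3, against 46.8%) to 70.2% (without PT-91 library 2, against 46.3%).

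PNX-20 was given at another dose than the agonists, and the values are given side by side. At an unadjusted p under 0.05, edgeR counted 1 higher and 0 lower of 44 primary rows for PT-91 over PNX-20, beside 3.5% of all genes (1.84% higher), and 0 higher and 1 lower for A8535 over PNX-20, beside 3.91% (2.06% higher and 1.86% lower). The NAD carrier gene slc25a51b had 45.7 to 96.3 CPM in A8535 ovaries and 68.7 to 189 CPM in PNX-20 ovaries, and slc25a16 on its chromosome 13 row had 8.59 to 60.5 CPM in PT-91 ovaries and 3.61 to 10.2 CPM in PNX-20 ovaries. Both ranges overlapped, and these are the rows counted. With copies summed, 0 rows were counted higher for PT-91 over PNX-20. Both slc25a16 rows together had 17.55 to 61.0 CPM in PT-91 ovaries and 15.64 to 27.3 CPM in PNX-20 ovaries. Groups did not overlap for 1 primary row of PT-91 and PNX-20, slc25a27, beside 1.81% of all genes, and for 0 of A8535 and PNX-20, beside 3.4%. Each of these comparisons shares the PNX-20 libraries with the other and with the comparison to the control.

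Genes that work beside the carriers were read from lists of the ATP synthase, of the import machinery for carrier proteins, of other mitochondrial transporters, and of uncoupling proteins and carrier homologs. None of their members passed the test in edgeR at an adjusted p under 0.05. At an unadjusted p under 0.05, 0 of 20 ATP synthase genes tested were higher after PNX-20, 0 after A8535, and 6 after PT-91, beside 1.3%, 1.76%, and 5.33% of all genes. The median log2 fold changes of this list were 0.28, 0.13, and 0.65 in these comparisons. After PT-91 the 6 included atp5mea, with 1.83 (SE 0.62), and atp5pd, with 1.17 (SE 0.45). Of 18 import genes, 1 was higher after PNX-20, 0 after A8535, and 4 after PT-91. The 4 were small subunits and receptors of the outer membrane translocase, tomm5, tomm6, tomm7, and tomm22, and the 1 after PNX-20 was tomm20b, with 0.85 (SE 0.26).

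Among other transporters, mpc2a, which encodes a subunit of the mitochondrial pyruvate carrier, gave 1.94 (SE 0.58) after PNX-20 and 2.21 (SE 0.77) after PT-91. For this list, 1 of 25 genes was higher after PNX-20, 1 of 26 lower after A8535, and 2 of 26 higher after PT-91, beside 1.3%, 0.719%, and 5.33% of all genes in those directions. Neither of the 2 genes tested from the list of uncoupling proteins and carrier homologs had an unadjusted p under 0.05. The PT-91 counts were not seen without the 2 PT-91 libraries with a high share of mitochondrially encoded reads, a comparison of fewer libraries. There, 0 genes of any of these lists were higher at an unadjusted p under 0.05 by edgeR, against 1.72% of all genes in either direction, and the medians were 0.06 for the ATP synthase and 0.12 for carrier import. The slc25 median without these libraries was 0.14, with 34 of 45 rows tested above 0 (75.6%, against 45.3% of all genes), and 0 rows had an unadjusted p under 0.05.

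The other alternate rows were those of slc25a4, slc25a6, slc25a15b, slc25a17, slc25a22, slc25a25b, and slc25a36a, and the second one of slc25a26. For the gene named slc25a22, the alternate row held 31.88% to 56.43% of the summed CPM in PNX-20, 19.86% to 47.83% in A8535, 33.06% to 47.85% in PT-91, and 32.53% to 46.9% in control libraries. For slc25a15b, an ornithine carrier gene, its share ran from 2% to 98.61% in PNX-20 and from 9.444% to 100% in control libraries, so single libraries drew nearly all reads from 1 row.

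Some members share their genomic place. The slc25a5 and slc25a43 genes lie on the same strand of chromosome 14 with 661 bases between them, while slc25a29 and slc25a47b on chromosome 17 overlap by 1309 bases on opposite strands. The RPKM of slc25a43, whose transport role is not assigned, averaged 6.32 against 1157 for its neighbor. Counts of slc25a29 and slc25a47b may share reads, since the strand setting of the counting was not given in the sources used here.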

How the data were processed

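The deposited tables give raw read counts per gene, which the authors made with fastp, HISAT2 2.0.5 on GRCz11, and featureCounts 1.5.0-p3, and the gene length in bases as the other column used here. The authors' FPKM, DESeq2-scaled values, fold changes, and p-values were also in the tables and were not used. Counts of 10233870 to 15104959 reads per library limit precision for low genes. Control counts were the same in all 3 tables. Tests were run in R 4.3.3 with edgeR 4.0.16 (filterByExpr, TMM, robust quasi-likelihood F test, Benjamini-Hochberg over all genes), on the 8 libraries of a comparison with the control or on all 16 for comparisons between treatments. The scripts were tested on simulated data. CPM and RPKM used TMM over 16 libraries without a prior count. SE is the fold change over the square root of F. Values per library were given for members with an unadjusted p under 0.05 against the control or between agonists, the 8 highest by RPKM, and the smallest p of each role group. Members and lists were chosen with earlier results of these data known. The gene slc25a17 was added after its values were seen. Alternatives were other scalings, filters, limma 3.58.1, DESeq2 1.42.0, a replicate block, summed copies, and leaving out libraries. RefSeq (GRCz12tu) gave a symbol for all 54 primary rows, 3 of them different (slc25a10 is slc25a10b, slc25a22 is slc25a55a, and the slc25a29 row of chromosome 17, listed in 1 table, is slc25a29l), and names 5 further rows slc25a that the files name otherwise and that are not members. Figures were drawn with matplotlib 3.10.9.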

Additional observations from a re-analysis of the deposited data

Results flagged for a closer look

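In all, 76 groups of 4 libraries were examined, for the named members, the family's share of counts, and the mitochondrially encoded share. Of these, 9 had 1 library far from the other 3, where chance gives about 1 in 20 for independent, normally distributed values. The same libraries recur across these groups, so that rate is only a rough guide. Control library 2 stood high for slc25a3b, at 554.6 CPM against 298 to 315 CPM, and for slc25a46, at 66.96 CPM against 43.5 to 45.8 CPM. A8535 library 3 stood high for slc25a5, at 1956 CPM against 1067 to 1155 CPM, and for slc25a3b, at 564.6 CPM against 299.7 to 334 CPM. PT-91 library 3 stood high for slc25a20, at 189.8 CPM against 74.2 to 91.2 CPM. A8535 library 3 also had the lowest sum of oocyte markers, 3316 CPM.

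The chromosome 13 row of slc25a16 was at 60.52 CPM in PT-91 library 1, against 8.59 to 14.4 CPM in the other PT-91 libraries. PNX-20 library 1 was low for slc25a46, at 38.66 CPM against 51.05 to 52.7 CPM. The alternate row of slc25a28 was at 39.96 CPM in PNX-20 library 3, against 0.235 to 0.706 CPM, and at 14.82 CPM in control library 4, against 0.661 to 0.801 CPM. What sets these libraries apart was not tested.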

How the results depend on the processing

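No primary slc25 row had an adjusted p under 0.05 under any alternative run, and no direction of a called value turned. The adjusted p of alternate rows was read only in the analysis as reported. The counts of primary rows at an unadjusted p under 0.05 moved as follows. For PNX-20 over control (2 by the analysis as reported), the count was 4 with DESeq2, 1 with library size only, limma-voom, copies summed, or 1 fit of all 16 libraries, and 1 to 5 without single libraries. For A8535 over control (0), it was 2 without a filter on low counts and 0 to 2 without single libraries. For PT-91 over control (0), it was 1 with DESeq2 and 0 to 1 without single libraries, and for PT-91 over A8535 (0), it was 0 to 1. For PT-91 over PNX-20 (1), it was 3 with DESeq2, 0 with limma-voom or copies summed, and 0 to 4 without single libraries. For A8535 over PNX-20 (1), it was 2 with upper-quartile scaling, library size only, no filter, or DESeq2, and 0 to 4 without single libraries. For the fold changes of named rows, 1132 alternatives kept their value within 1 SE or their side of that threshold, 21 moved further, 24 lost it, and 17 gained it. The cause of these moves was not tested.

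Replicate numbers shared across groups were tried as a replicate block, which gave 1 row for PNX-20 over control and left the other totals as they were, although for PT-91 over PNX-20 the 1 higher row was lost and 1 lower row gained. The numbers were not taken as pairs. Correlations of same-numbered libraries ran from -0.285 to 0.583, and 11 of 24 were over 0.1. Those of other numbers ran from -0.369 to 0.617, and 16 of 72 were over 0.1. The highest, 0.617, was between A8535 library 4 and control library 1, and whether these share a fish was not tested. Each library's best partner had its own number in 7 of 16, a hint from the data only. The unadjusted p of slc25a27 after PNX-20 was above 0.05 with library size only, no filter, limma-voom, the block, or 1 fit of all 16 libraries. With 4 libraries per group, differences smaller than the intervals given could not be detected.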
